A study of Mus musculus with 12 samples.

Results

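The immunoglobulin heavy chain (Igh) locus lies on chromosome 12 of the mouse genome (build mm10), and its CTCF sites were described here in liver. The gene segments were 183 Ighv (variable), 20 Ighd (diversity), 4 Ighj (joining) and 8 constant segments of the RefSeq annotation, from Igha at 113256204 to the end of Ighv1-86 at 116009954. A site was a stretch of the genome covered by a peak in any of 6 CTCF libraries, with peaks joined where they shared 1 bp or more. Of the 76061 sites, 93 lay between 300 kb before the first and 300 kb beyond the last segment: 47 within 20 kb of the segments (the locus sites), 36 in the flank on the constant side and 10 in the flank on the variable side. Among the merged sites the members were chosen by position, and a site exists only where a library had a peak.

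The places that CTCF occupies were read by ChIP-seq, sequencing of the DNA that an antibody to CTCF pulls down, from the whole liver of male wild-type C57BL6/Ncrl mice, 3 to 4 months old, on normal chow. The starved mice had no food for 24 h and their livers were taken at ZT13 (zeitgeber time, hours after lights on), and the fed mice ate ad libitum and their livers were taken at ZT16, so feeding and collection time cannot be told apart. Each state had 3 ChIP libraries with a peak list of their own, of 30752, 23926 and 29866 peaks in starved 1 to 3 and 56103, 49030 and 74950 peaks in fed 1 to 3. The read depth is unknown. The labels do not say that libraries came from separate mice, so the p-values rest on how far these libraries spread, and that spread may be a technical one. The lists hold CTCF peaks and no expression, so neither the liver nor its share of lymphocytes was checked from them, and in whole tissue fewer cells with a site bound and less binding per cell cannot be told apart.

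In developing B cells an Ighv, an Ighd and an Ighj segment are joined, with the DNA between them removed, to encode the variable part of an antibody heavy chain, and the constant segments encode the rest. CTCF, a zinc finger protein that stops cohesin during loop extrusion, is known in B cells to bind many places along the variable segments, between the variable and the diversity segments and beyond the constant segments, where it shapes the loops that bring distant segments together. Hepatocytes do not rearrange the locus. The variable segments are read toward the D and J segments, so that on this build the low-coordinate end of an Ighv segment is the end that carries its recombination signal.

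Both edges of the locus carried sites that were called in all 6 libraries, with the best-ranked of them on the constant side. Beyond the constant segments 5 such sites stood within 9.15 kb, with the nearest 31.4 kb from Igha. The strongest of them (113221248 to 113223278) ranked at 97.9, 98.8 and 98.6 in starved 1 to 3 and at 94.4, 99.6 and 99.8 in fed 1 to 3, as a percentile of the peak score within each library's own list, where 100 is the best-scored peak. The next (113216950 to 113218263) ranked at 96.7, 90.3 and 91.1 in starved and at 94.4, 95.9 and 99.1 in fed livers. The mean ranks of the rest, starting at 113215614, 113219756 and 113223737, were 81.3, 66.7 and 54.7 in starved livers and 87.7, 87.8 and 83.3 in fed livers. Sites this close together were rare: of the 22131 sites called in all 6 libraries across the genome, 12 (0.0542%) belonged to a run of 5 within this span, and 5 of those 12 were the ones named here. This group was singled out after its values were seen, and the span and the run of 5 in this count were taken from it.

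On the variable side, a site at 116027759 to 116028510, beyond Ighv1-86 and 19.6 kb before Zfp386, a zinc finger protein gene, was called in all 6 libraries. It ranked at 75.0, 48.0 and 75.8 in starved and at 90.2, 87.8 and 86.2 in fed livers. Farther out, 3414 bp from Wdr60, a gene of ciliary transport, a site at 116202329 to 116203364 ranked at 67.1, 36.9 and 72.2 in starved and at 97.5, 87.7 and 98.5 in fed livers. Ranks from lists of different length do not measure a change.

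The flank on the constant side held sites more densely than the variable segments, 129 per Mb against 17.2 per Mb, with 25.9 per Mb over chromosome 12. Its best-scored site apart from the group beside Igha was at 113155221 to 113156306, with its midpoint 658 bp from Tedc1 (mean rank 94.2 in starved and 95.2 in fed livers). A pair of promoter windows (250 bases before to 50 after a gene start, RefSeq, GRCm38.p6, the same build) are shown as examples of the sequence under a site, 1 without and 1 with a motif match, chosen after the search. The window of Btbd6 (112976313 to 112976612, plus strand) lay within a site called in all 6 libraries, and that of Crip2, a LIM domain protein gene (113139986 to 113140285, plus strand), shared 296 of its bases with a site called in 1 starved and 3 fed libraries. Capitals mark a match to the core of the CTCF motif, 12 letters of which some are free, searched on both strands, with no other motif searched.
Btbd6: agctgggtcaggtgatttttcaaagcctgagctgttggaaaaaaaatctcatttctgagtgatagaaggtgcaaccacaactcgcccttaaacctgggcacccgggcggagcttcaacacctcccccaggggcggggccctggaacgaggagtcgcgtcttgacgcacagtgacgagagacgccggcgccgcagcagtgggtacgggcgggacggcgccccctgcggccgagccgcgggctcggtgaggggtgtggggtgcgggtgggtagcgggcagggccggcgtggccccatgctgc
Crip2: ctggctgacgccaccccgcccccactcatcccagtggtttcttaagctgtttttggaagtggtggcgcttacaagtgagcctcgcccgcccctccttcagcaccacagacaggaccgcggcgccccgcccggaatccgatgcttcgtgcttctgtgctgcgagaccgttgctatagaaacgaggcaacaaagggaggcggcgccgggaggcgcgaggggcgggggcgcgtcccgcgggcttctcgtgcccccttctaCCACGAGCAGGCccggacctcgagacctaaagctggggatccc
The letters occurred once in the Crip2 window and 0 times in that of Btbd6. A search for exact letters misses near matches, so a window with 0 may still hold a CTCF motif. The window of F930026P19Rik (113140091 to 113140390, minus strand) overlaps that of Crip2 and lay wholly within the same site. It held the same match, read from the other strand, and is not printed. A separate match stood in the window of Pacs2. That window overlapped a pair of sites without a starved peak by 20 and 2 bp at its ends, and the match lay outside both sites. Over the genome the letters occurred in 2.43% of 32851 promoter windows of this length. Among the 2594 windows that overlapped a site called in all 6 libraries it was 10.2%. The table of windows held none of the Ighv segments, and the sequences under the locus sites were not analysed here.

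Within the locus the constant and joining segments were almost free of CTCF sites. Over the 166.5 kb of constant segments there was 1 site, inside Igha, the constant gene of IgA (113257316 to 113257706), called in 0 starved libraries and in fed 1 and 3 at ranks of 33.8 and 51.3. From there 227 kb without any site reached past Ighm, the Ighj and most Ighd segments. Of the 3022 gaps between sites on chromosome 12, 86 were as long or longer.

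Beyond that gap a pair of sites lay between Ighd1-1 and Adam6b, a gene of the sperm surface that is embedded in the locus. The nearer to Adam6b (113487504 to 113488271, 5.31 kb from Ighd1-1 and 84.7 kb before the first Ighv segment) ranked at 89.9, 88.5 and 89.2 in starved and at 86.4, 96.7 and 98.0 in fed livers. It had the highest mean rank among the locus sites in both states. Its neighbour (113485023 to 113485650) ranked at 0.13 and 6.90 in starved 1 and 3, was not called in starved 2, and ranked at 51.9, 32.6 and 58.1 in fed livers. In B cells this interval is known for a control region with a pair of CTCF elements that keeps D to J joining ahead of V joining. Between the last Ighd (ending at 113526809) and the first Ighv segment there were 0 sites.

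**Figure D1:**
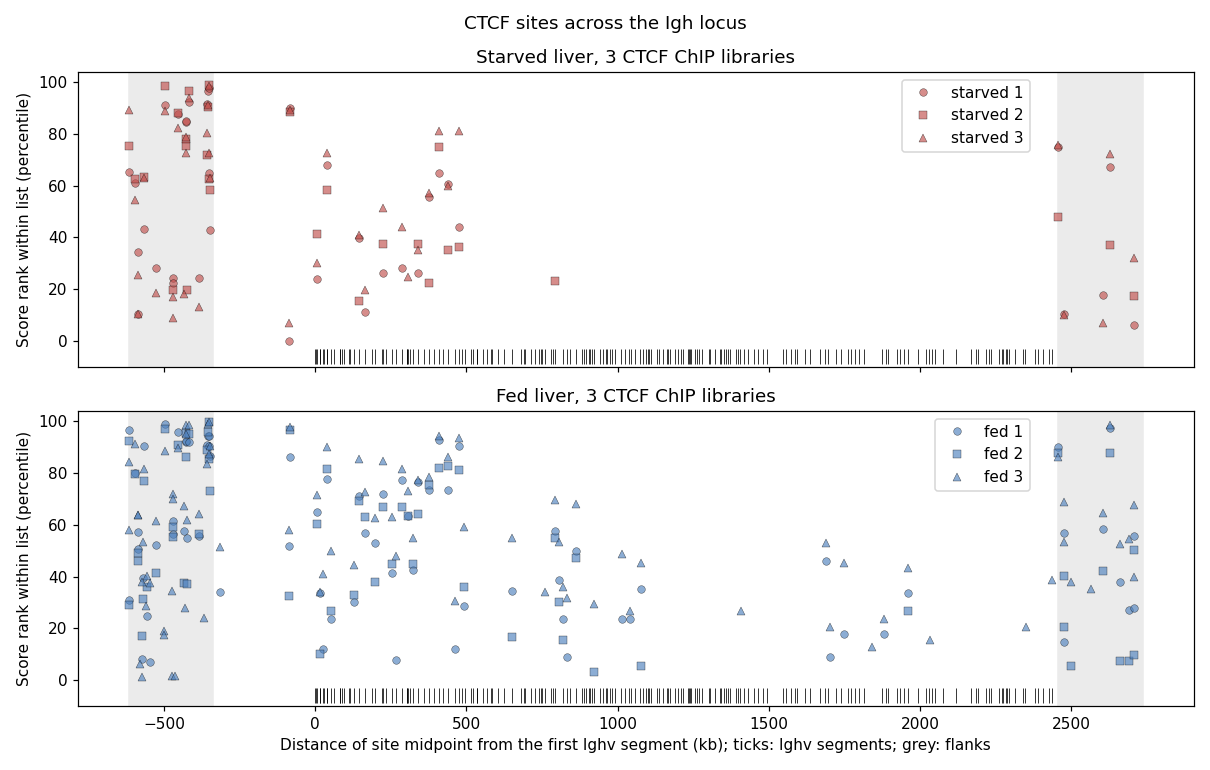
Score rank of each CTCF peak within its own list (percentile, y axis) against the distance of the site from the first Ighv segment (kb, x axis), with the starved libraries above and the fed libraries below; ticks are Ighv segments and grey areas the flanks. The highest ranks stand on the constant side. High ranks also stand by Adam6b, 84.7 kb before the Ighv segments, over their first 500 kb and, in fed livers, on the variable side. The starved panel is empty from 0.79 Mb to the far edge of the Ighv segments.

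The 42 sites among the Ighv segments were concentrated at the end near the D and J segments. The first 500 kb, with 44 Ighv segments, the most frequent of families 5, 2 and 14, held 22 sites, and the next 500 kb with 41 segments held 8. The third, the fourth and the last interval, dominated by families 1 and 8, held 47, 25 and 26 segments and 4, 6 and 2 sites. Per library, the first 500 kb had 11, 9 and 12 sites in starved 1 to 3 and 22, 19 and 22 sites in fed 1 to 3. The second had 0, 1 and 0 sites in starved and 6, 6 and 8 in fed livers, and the 3 intervals after it had 0 sites in every starved library. In fed 2, the shortest fed list, those 3 intervals had 1, 1 and 0 sites, against 3, 5 and 0 in fed 1 and 4, 6 and 2 in fed 3.

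Long stretches of the distal variable segments had no site in any library. The longest (114650773 to 114981622) spanned 331 kb and 35 Ighv segments, and 50 of the 3022 gaps on chromosome 12 were as long or longer. Another of 319 kb (115605300 to 115924122) spanned 19 segments. The last site with a starved peak lay 0.79 Mb into the variable segments, at Ighv12-3 (114366112 to 114367006, ranks of 23.0 in starved 2 and of 57.5, 55.0 and 69.4 in fed 1 to 3), and 116 of the 183 Ighv segments lie beyond it.

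**Figure D2:**
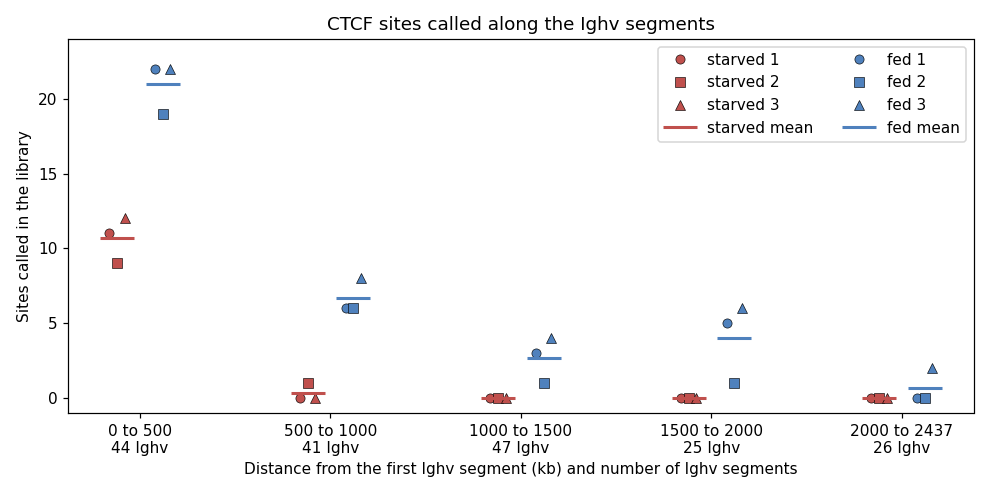
Number of CTCF sites called in each library (y axis) by interval of 500 kb from the first Ighv segment (x axis, with the number of Ighv segments per interval); points are libraries and bars the mean of 3. Counts are highest in the first interval, and from the third interval on the 3 starved libraries are at 0.

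Sites among the proximal segments sat on the recombination end of a segment. Of the 42 sites, 28 had their midpoint within 500 bp of the low-coordinate end of the nearest Ighv segment, and so did all 9 of those called in all 6 libraries. Windows of that size around these ends cover 7.49% of the variable span. Of the 29 sites nearest to a segment outside families 1 and 8, 26 lay that close, from 129 bp on the D and J side of the end to 109 bp into the segment, with a median of -24.5 bp. At families 1 and 8, 2 of 13 sites lay within 500 bp, and the remaining 11 lay beyond the other end of the segment. From the low-coordinate end these 11 were 1224, 1282, 3884, 3921, 4014, 4078, 4506, 6418, 8476, 8701 and 27470 bp away. The split by family was made after these values were seen. Of the sites at families 1 and 8, 2 of 13 were called in all 3 fed libraries and 0 of 13 in a starved library, against 24 and 13 of the other 29. Over the genome 59% of sites were called in all 3 fed libraries. Those at families 1 and 8 had low mean fed ranks, from 12.7 to 49.6, taken over the fed libraries that called each site. Genome sites called in all 3 fed libraries had a starved peak in 12.3% at mean fed ranks of 20 to 30 and in 23.7% at 30 to 40. Only 2 of the 13 sites were called in all 3 fed libraries, so these shares are no like-for-like reference for the 13. The contrast between families was not tested.

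**Figure D3:**
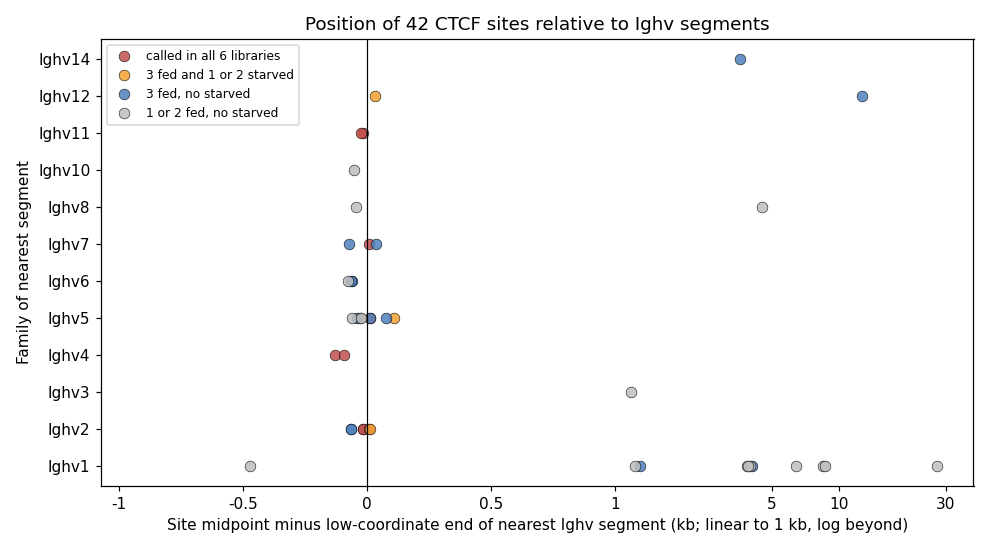
Distance from the low-coordinate end of the nearest Ighv segment to the midpoint of each of the 42 sites (kb, x axis, linear up to 1 kb and logarithmic beyond) by segment family (y axis), coloured by the libraries that called the site. The 9 sites called in all 6 libraries sit at the segment end, between -129 and 10 bp, while most sites of Ighv1 lie more than 1 kb away.

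Counted by segment, 31 of 183 Ighv segments (16.9%) had a site midpoint within 1 kb, each with a site of its own, and 9 had one that was called in all 6 libraries. This was 25 of 120 segments not annotated as pseudogenes (20.8%) and 6 of 63 pseudogenes (9.52%). By family it was 8 of 21 in Ighv5, 6 of 11 in Ighv2, 3 of 4 in Ighv7, 3 of 7 in Ighv6, 2 of 2 in Ighv4, 2 of 2 in Ighv11 and 3 of 92 in Ighv1. Families 9, 13, 14, 15 and 16 had 0. Segments of a family are alike in sequence, and the sources used here do not say how reads that map to several places were treated, so a site at 1 segment may hold reads from another and a segment without a site may be bound.

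In all 6 libraries 9 of the 42 Ighv sites and 11 of the 47 locus sites were called, where over the genome it was 29.1% of sites. The 9 began at Ighv5-2, the first segment from the D side not annotated as a pseudogene (113578274 to 113578753). It ranked at 23.9, 41.3 and 30.01 in starved and at 64.8, 60.4 and 71.4 in fed livers, with its midpoint 10 bp inside the segment. Ighv2-3 (113610752 to 113611585) ranked at 67.8, 58.3 and 72.6 in starved and at 77.9, 81.6 and 90.0 in fed livers. The best-scored pair by mean fed rank belonged to family 11, which has 2 segments. Ighv11-1 (113981471 to 113982257) ranked at 64.9, 75.1 and 81.2 in starved and at 92.8, 81.9 and 94.3 in fed livers. Ighv11-2 (114047831 to 114048601) ranked at 44.2, 36.2 and 81.2 in starved and at 90.5, 80.996 and 93.6 in fed livers, with starved 3 far above the other starved libraries. Between this pair lay Ighv4-2, a pseudogene (114012636 to 114013465, mean ranks of 51.9 in starved and 80.8 in fed livers). Ighv4-1, Ighv2-6, Ighv2-6-8 and Ighv7-2 had mean ranks of 45.0, 32.1, 38.2 and 32.9 in starved livers and of 75.9, 75.2, 74.5 and 72.7 in fed livers.

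The locus sites called in all 3 fed and in no starved library numbered 13, all of them among the Ighv segments, and 0 when the lists were made equally long. The 5 with the highest mean fed rank were at Ighv6-6 (114434570, 55.1), Ighv2-9-1 (113769620, 51.2), Ighv5-15 (113826357, 49.8), the pseudogene Ighv7-1 (113896190, 47.5) and 3198 bp from Ighv14-3 (114063344, 41.2). The single ranks were 50.03, 47.3 and 68.0 in fed 1 to 3 at Ighv6-6 and, at Ighv2-9-1, 53.1, 38.0 and 62.5. The 13 had mean fed ranks from 24.9 to 55.1. All 47 locus sites had a peak in fed 3, the longest list, which held 97.5% of all sites of the genome. No site of the locus or its flanks was called in starved libraries alone. Over the genome 0 of 76061 sites were called in all 3 starved and no fed library, a narrower rule. The genome share called in any starved library alone is not given here.

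The number of locus sites called was lower in every starved library than in every fed library. It was 14, 12 and 15 in starved 1 to 3 and 40, 30 and 47 in fed 1 to 3, or 13.7 ± 1.53 in starved and 39.0 ± 8.54 in fed livers (SD, n = 3 each), a log2 ratio of -1.51. A two-sided exact permutation test of this difference gave p = 0.1, and 3 libraries against 3 cannot give a smaller one. Over all sites the log2 ratio was -1.11. Relative to the share of all sites called in the same library, the share of locus sites was -0.30 ± 0.08 in starved and 0.11 ± 0.12 in fed livers on the log2 scale (SD, n = 3 each), a difference of -0.40 (exact permutation p = 0.1). With the best 23926 peaks of every list, which makes the lists equally long, the counts were 12, 12 and 13 in starved and 14, 15 and 15 in fed livers, a log2 ratio of -0.25, and the difference relative to all sites was -0.22 (exact permutation p = 0.1). With the flanks of 300 kb on both sides included, the difference was -0.04 (exact permutation p = 0.5).

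Of the 47 locus sites, 29 were called in all 3 fed libraries, where over the genome 59% of sites were. A starved peak, in 1 library or more, was present at 16 of these 29 (55.2%, with an exact 95% interval of 35.7 to 73.6), and the share over all such sites of the genome was 70.9%. In all 3 starved libraries it was 11 (37.9%, 20.7 to 57.7), where the share over the genome was 49.3%, and 13 (44.8%, 26.4 to 64.3) had no starved peak, against 29.1%. With the lists made equally long, 14 locus sites were called in all 3 fed libraries, and 0 of them had no starved peak. All 14 had a starved peak and 11 had one in all 3 starved libraries, where over the genome the shares were 98.8% and 88.9% of 21707 sites. The intervals hold counting error alone, and the sites of a library are no replicates. With the full lists, each of the 3 genome shares lies inside the interval of the locus. The share without a starved peak is the complement of the share with 1 or more, so it adds no separate comparison. Whether a starved peak was present went with the mean fed rank: all 15 locus sites above 60 had a starved peak (99.7% over the genome), and 1 of 14 below 60 had (40.6% over the genome). In all 3 starved libraries it was 11 of the 15 above 60 (73.3%, against 91.3% over the genome). Below 60 it was 0 of 14 (5.07% over the genome). The limit of 60 was set after the values were seen, and the median fed rank was 60.6 in the locus and 61.0 over the genome. The contrasts with the genome above and below 60 were not tested.

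**Figure D4:**
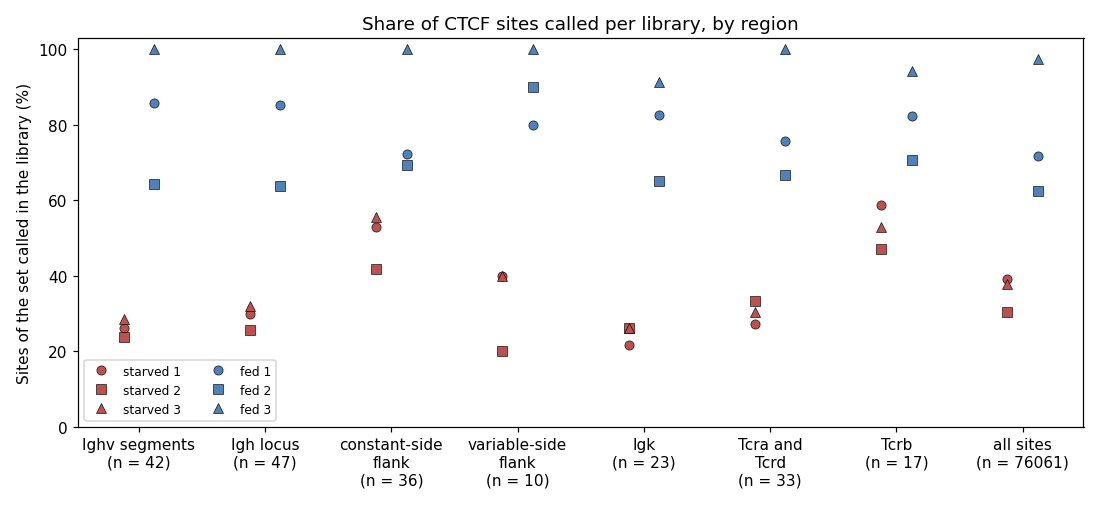
Share of the merged sites of each region that a library called (%, y axis) for the Ighv segments, the whole locus, its flanks, the other antigen receptor loci and all sites (x axis, number of sites in brackets), with the starved libraries left of the fed ones. The starved libraries called 25.5 to 31.9% of the locus sites and 41.7 to 55.6% of those of the constant-side flank, and the fed libraries 63.8 to 100% and 69.4 to 100%. Of all sites the starved libraries called 30.5 to 39.0% and the fed libraries 62.4 to 97.5%.

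Both flanks also had fewer sites in every starved library than in any fed library. On the constant side the libraries called 19, 15 and 20 of 36 sites in starved 1 to 3 and 26, 25 and 36 in fed 1 to 3, a log2 ratio of -0.69. On the variable side it was 4, 2 and 4 of 10 sites in starved and 8, 9 and 10 in fed livers, a log2 ratio of -1.43. Both gave an exact permutation p of 0.1. The sites on the constant side had a higher median fed rank (83.0) than those of the locus (60.6) and of the variable side (43.9), among sites called in all 3 fed libraries, and the difference between the flanks was not tested.

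Other antigen receptor loci, taken by the same 20 kb margin, gave a measure of loci built from gene segments. The share of sites called was lower in starved than in fed libraries in each: the log2 ratio of the mean counts was -1.69 at Igk (the kappa light chain, 23 sites), -1.41 at Tcra and Tcrd (33 sites) and -0.64 at Tcrb (17 sites). The share of Igh sites relative to these loci together differed by -0.25 on the log2 scale between starved and fed livers (exact permutation p = 0.1). With lists of equal length it was -0.10 (p = 0.6 in the exact permutation test). As to position, a site lay within 1 kb of 1 of 162 V segments at Igk (0.617%), 20 of 136 at Tcra and Tcrd (14.7%) and 6 of 35 at Tcrb (17.1%), where Igh had 16.9%. These shares are a description and were not tested.

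To compare scores without the difference in list length, the 22131 sites called in all 6 libraries were ranked among themselves in each library, and the ranks, as normal scores, were compared with limma over all of them. Across the genome 28 sites ranked higher in starved (0.127%) and 5 higher in fed livers (0.0226%) at a Benjamini-Hochberg adjusted p under 0.05. None of the 27 such sites of the locus and its flanks did, and 2, both lower in starved livers, had an unadjusted p under 0.05, as had 5.54% of the shared sites in the direction of starved and 5.25% in that of fed livers. The median difference of the 11 locus sites was -0.22 and that of all 22131 sites -0.0027 (starved minus fed, normal scores). Of the 11, 9 were negative, as were 11127 of all 22131. In the constant-side flank the median was -0.20, with 9 of 14 negative, and in the variable-side flank 1 of 2 was negative. These medians and counts were not tested.

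Ighv11-2 had the lowest p within the locus. On the scale of the shared sites it ranked at 24.8, 32.6 and 74.9 in starved 1 to 3 and at 76.0, 58.2 and 78.4 in fed 1 to 3 (percentile), with starved 3 among the fed values. The difference in normal scores was -0.72 ± 0.34 (SE), with an adjusted p of 0.449 in limma. The site near Wdr60 in the flank ranked at 54.8, 33.3 and 63.0 in starved and at 93.7, 72.8 and 94.9 in fed livers, without overlap, and differed by -1.25 ± 0.33 (SE), with an adjusted p of 0.123 in limma.

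The other locus sites had higher p-values in limma. The site by Adam6b ranked at 86.02, 87.7 and 85.5 in starved and at 65.6, 92.7 and 93.2 in fed livers, where the starved values lie within the fed range. At Ighv2-6 it was 19.7, 12.1 and 22.7 in starved and 28.2, 32.3 and 50.3 in fed livers, the only locus site whose groups did not overlap. Over the genome every starved library lay below every fed library at 7.37% of the shared sites and above at 8.51%. In the group of sites beside Igha the mean shared rank was 98.0 in starved and 94.8 in fed livers at the strongest site and 43.2 and 58.1 at the one nearest Igha, and 0 of the 5 passed the test.

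**Figure D5:**
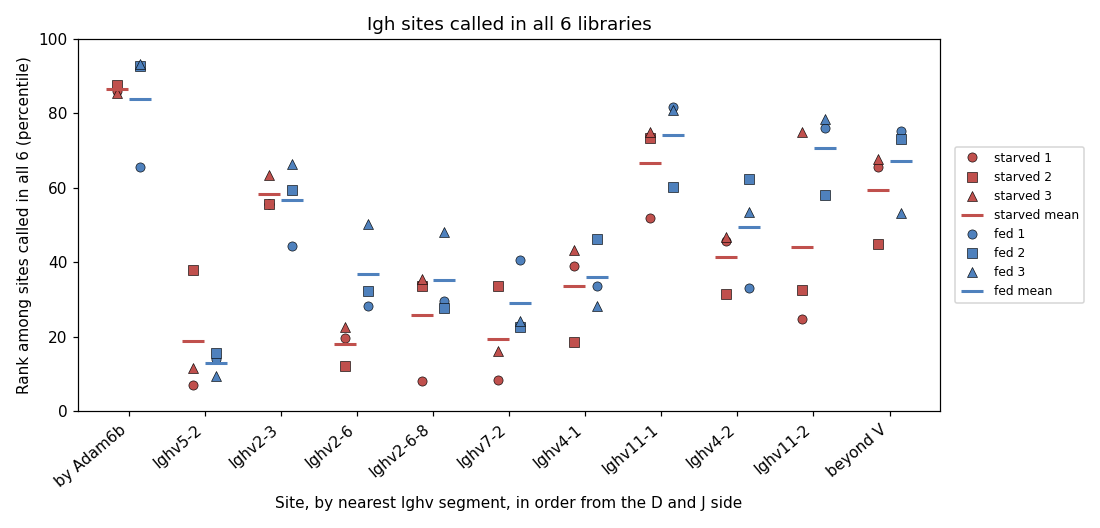
Rank of the 11 locus sites called in all 6 libraries among the 22131 sites called in all 6 (percentile, y axis), by nearest Ighv segment in order from the D and J side (x axis); points are libraries and bars the mean of 3. Starved and fed libraries overlap at every site except Ighv2-6.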

How the data were processed

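CTCF ChIP-seq of snap-frozen whole livers gave 6 peak lists, 1 for each of 3 starved and 3 fed libraries, and the 3 starved and 3 fed inputs were not analysed here. The authors deposited per peak a position and a score, per library and not pooled; the score starts just above 2 in every list, and the sources used here do not say what it measures. Coordinates are on mm10, per the submitters' processing notes, and the tools named in them, without roles, are BWA 0.7.5a, bedtools 2.17, FastQC, HOMER, MACS2 and SAMtools. Neither read depth, the use of inputs nor the treatment of duplicates or of reads with several places is stated there.

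Sites were peaks of all lists merged at 1 bp of overlap, and a site in several peaks of a library took its best score. Positions are counted from 1. Segments came from RefSeq (GRCm38.p6), matched by symbol and segment type; 1 further V segment with another symbol was not used. Flanks were read as reaching 300 kb on both sides, and tests used the 20 kb margin. Counts were compared by exact two-sided permutation over 20 labellings, ranks with limma 3.58.1 (R 4.3.3) at an adjusted p under 0.05, and shares have exact binomial 95% intervals. The planned motif search was made in promoter windows only, since no genome sequence was used. Replicate numbers were not taken to pair the libraries (sensitivity to a block is given at the end). The sites and tests were chosen with earlier results of these data known. Named were the locus sites called in all 6 libraries, the 5 best fed-only ones, the site of the constant segments, the best of each flank, and others where said. Scripts ran in Python 3.11.15 with scipy 1.17.1, numpy 2.4.6, pandas 2.3.3 and matplotlib 3.10.9.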

Additional observations from a re-analysis of the deposited data

How the results depend on the processing

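Alternatives were trimmed peaks (200 bp), merging within 500 bp, a score limit of 30.4 (the median over all lists), lists of equal length, wider windows, 2 of 3 fed libraries, other distances, a fit with a replicate block, and the omission of each library in turn; the window of 300 kb on both sides was added after seeing the data. The lower number of locus sites in starved libraries kept its direction under all 13 alternatives, and so did its value relative to all sites. Several of these could hardly have turned it. The replicate block does not enter the value, and the groups did not overlap before 1 library was left out. Besides, 3 libraries against 3 cannot pass a threshold of 0.05. Leaving out 1 library gave log2 ratios of -1.67 (without fed 2) to -1.38, values relative to all sites of -0.44 to -0.33, and relative to the other receptor loci of -0.31 to -0.15. The last of these turned to 0.11 with 300 kb on both sides, a window that adds the densely bound constant-side flank, and was -0.02 at the stricter score limit. The share of fed sites with a starved peak was 100% (14 of 14) with equal lists (98.8% over the genome), and without 1 library 40% (without fed 2) to 55.2%. The share in all 3 starved libraries was 78.6% with equal lists (88.9% over the genome) and 18.8% (3 of 16 sites) at the stricter limit. With 1 library left out it was 27.5% (without fed 2) to 48.3% (without starved 2). The number of fed sites differs between these settings. Genome shares at the stricter limit and with 1 library left out are not given here. Ighv segments with a site within 1 kb numbered 18 at the stricter limit, 13 with equal lists, 9 for sites called in all 6 libraries and 29 to 31 with 1 library left out. The 33 sites of the genome whose shared rank differed became 10 with equal lists (19291 sites tested). With percentile ranks in place of normal scores they numbered 0, and with 1 library left out 5 (without fed 2) to 21 (without starved 1). The fits without 1 library hold fewer libraries, and the cause of the changes was not tested. Same-numbered libraries did not deviate together (correlations of 0.0025, -0.0238 and 0.0081), and the labels give them no shared origin. Such correlations cannot show whether they shared a batch. With the replicate block the shared-rank count was 101, the site near Wdr60 had an adjusted p of 0.0476 in limma (0.0476 to 0.400 over its alternatives), and the exact permutation p of the site counts was 0.25, the smallest that 8 labellings allow. At Ighv11-2 the adjusted p stayed above 0.05 under its 11 alternatives (0.238 to 0.718 in limma).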
